A study of Mus musculus with 6 samples.

Results

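The genes described here encode 10 basic leucine zipper (bZIP) transcription factors, the AP-1 proteins Jun, Junb, Jund, Fos, Fosb and Fosl2, the AP-1 relatives Batf and Batf3, the small MAF factor Maff and the repressor Bach2. They were taken by gene symbol from tables that list 21899 genes, each of the 10 symbols had 1 identifier, and all 10 had enough counts to be tested among 12768 genes. The samples were 3 libraries labelled as Dlst knockout (KO) and 3 labelled as wild type (WT). KO cells came from mice named Dlst-Treg iKO and WT cells from mice named iWT. The product of Dlst is the succinyltransferase of the TCA cycle enzyme complex that makes succinyl-CoA. In both groups spleen CD4+ T cells were polarised towards the regulatory T cell (Treg) fate for 2 days with 4-hydroxytamoxifen, the drug that switches on an inducible Cre, and CD4+ cells carrying the FoxP3-GFP and tdTomato reporters were sorted as induced Treg cells (iTregs). The Cre driver, the age of the mice and the number of mice behind each library were not given in the sources used here, so p-values measure the spread between these libraries, which may in part be technical.

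AP-1 is a dimer: a JUN protein pairs with itself or with a FOS or BATF protein through the leucine zipper, and the pair binds a short palindrome in DNA. Stimulation of the T cell receptor raises FOS and JUN mRNA within minutes through MAP kinases and serum response factor, and the mRNAs decay again quickly. BATF has no activation domain of its own and acts with JUN proteins and IRF4 at composite sites in activated T cells, Th17 cells and tissue Tregs. BACH2 pairs with small MAF proteins and occupies AP-1-like sites, where in mouse T cells it holds effector genes down and favours Treg formation.

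Total estimated counts were 49772670, 33590510 and 39049039 in KO replicates 1 to 3 and 35647816, 47526481 and 46359646 in WT replicates 1 to 3. The sorted identity genes were present in every library, with Foxp3 between 207 and 231 CPM (counts relative to library size, scaled by TMM) in KO and between 154 and 202 CPM in WT. Foxp3 was the 1 of the 5 sorted T cell genes (Cd3e, Cd4, Foxp3, Il2ra and Ctla4) with a log2 fold change above 0. The median of the 5 was -0.08, and their summed CPM overlapped between the groups. Singly, 2 of the 5 had an unadjusted edgeR p under 0.05, beside 15.1% of all tested genes. In 1, Foxp3, every KO library was above every WT library and in 1 below, beside 11.9% and 10.9% of all tested genes. Dlst itself was at 125, 129 and 129 CPM in KO and at 161, 149 and 149 CPM in WT, a log2 fold change of -0.26 (SE 0.05, edgeR adjusted p = 0.0894). Every KO library was below every WT library, but Dlst was not called and most of its mRNA level remained in KO, so these counts do not show a loss of the transcript. Replicate 1 of each group stood apart from the other libraries of its group. The Y-linked Ddx3y was at 80.8 CPM in KO replicate 1 alone and at or below 0.0257 CPM in the other 5 libraries, WT replicate 1 included. Over 9867 genes the median absolute log2 difference of KO replicate 1 from KO replicates 2 and 3 was 0.124 and 0.106, against 0.0494 between those 2. WT replicate 1 differed from WT replicates 2 and 3 by 0.121 and 0.106, against 0.0736 between those 2. B cell markers summed to 31.3, 29.5 and 29.6 CPM in KO and to 94.2, 30.0 and 14.7 CPM in WT. Their part in the results was not tested. The log2 fold change of each bZIP gene in the opening list is given with and without KO replicate 1. For some of them it is also given without WT replicate 1. Shares, ratios, sums and single genes outside that list are given with all libraries only. How far those rest on replicate 1 of either group was not tested.

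Levels of the 10 mRNAs, compared per gene length in TPM (transcript abundance scaled by gene length and library), spanned from Fosb at the bottom to Junb at the top. Junb averaged 252 TPM over the 6 libraries (range 220 to 313 TPM), Jund 238 TPM (207 to 269 TPM), Bach2 112 TPM (100.1 to 127 TPM) and Jun 79.2 TPM (63.1 to 87.0 TPM). Batf followed at 31.7 TPM (24.3 to 36.6 TPM), Maff at 28.1 TPM (17.2 to 34.2 TPM) and Fosl2 at 17.4 TPM (14.98 to 20.6 TPM). The lowest were Batf3 at 6.74 TPM (5.47 to 8.29 TPM), Fos at 3.17 TPM (2.48 to 4.16 TPM) and Fosb at 2.06 TPM (1.29 to 3.81 TPM). The ranges of Junb and Jund overlapped, as did those of Batf and Maff, of Maff and Fosl2, and of Fos and Fosb; the other neighbours in this order were apart in all 6 libraries. After 2 days of culture the JUN genes together held 575, 577 and 559 TPM in KO and 498, 624 and 581 TPM in WT, with overlapping groups. Fos, Fosb and Fosl2 together held 22.9, 22.3 and 21.6 TPM in KO and 25.8, 21.7 and 21.6 TPM in WT, also with overlap. With Fosl1, the FOS gene outside the 10, the FOS sum was 29.98, 33.7 and 32.8 TPM in KO and 39.99, 35.6 and 34.0 TPM in WT, with every KO library below every WT library. JUN mRNA exceeded this FOS sum of 4 genes by 17.8 ± 1.196 times in KO and by 15.7 ± 2.80 times in WT (SD, n = 3 each), with overlapping groups.

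**Figure D1:**
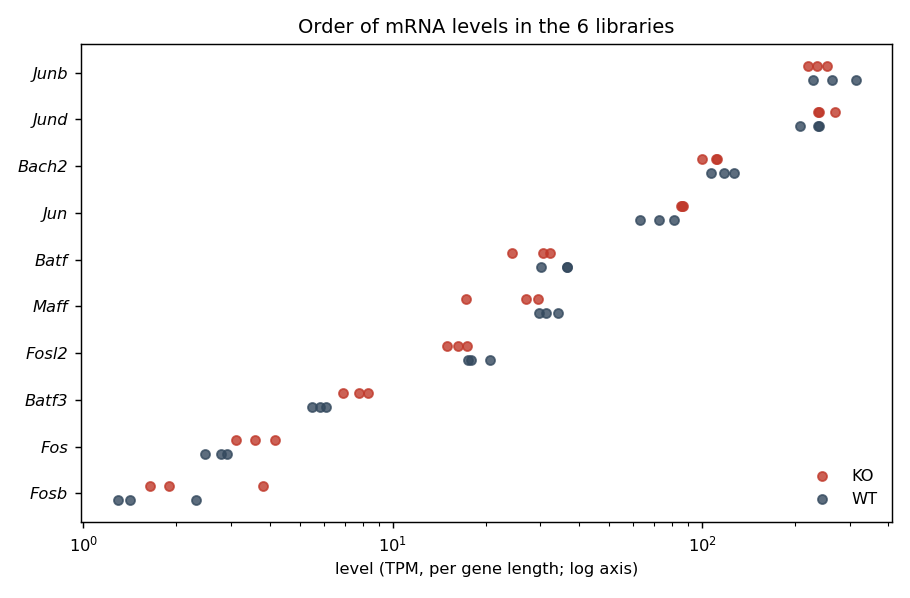
TPM of each of the 10 genes (rows, ordered by mean; log axis), 1 point per library, KO above WT in each row. Junb and Jund lie at the right between 207 and 313 TPM, and Fos and Fosb at the left between 1.29 and 4.16 TPM.

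The comparison of KO with WT asked whether the mRNA of these factors differs between iTregs of the 2 genotypes. No member passed. With the quasi-likelihood test of edgeR, Benjamini-Hochberg adjustment over all genes and a threshold of 0.05, 0 of the 10 were called, where the share over the whole table was 0.674% (0.454% with KO higher, 0.219% with KO lower), and their adjusted p ran from 0.232 to 0.532. DESeq2 and limma on log2(TPM + 1) also called 0 of the 10, against 4.17% and 0.305% of all tested genes. At an unadjusted p under 0.05 there were 4 members, Jun, Fos and Batf3 on the KO-higher side and Fosl2 on the KO-lower side, where 15.1% of tested genes had such a p. In CPM, 3 members had every KO library above every WT library (Jun, Fos and Batf3), which held for 11.9% of tested genes, and 0 had every KO library below, which held for 10.9%. Either way, 22.8% of tested genes had no overlap. The log2 fold changes were above 0 for 5 members and below 0 for 5, with a median of 0.0030 beside -0.0029 over all tested genes. Their median size without sign was 0.25, beside 0.10 over all tested genes. As the members were picked with results of these data known, these shares describe them and are no test of the group.

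**Figure D2:**
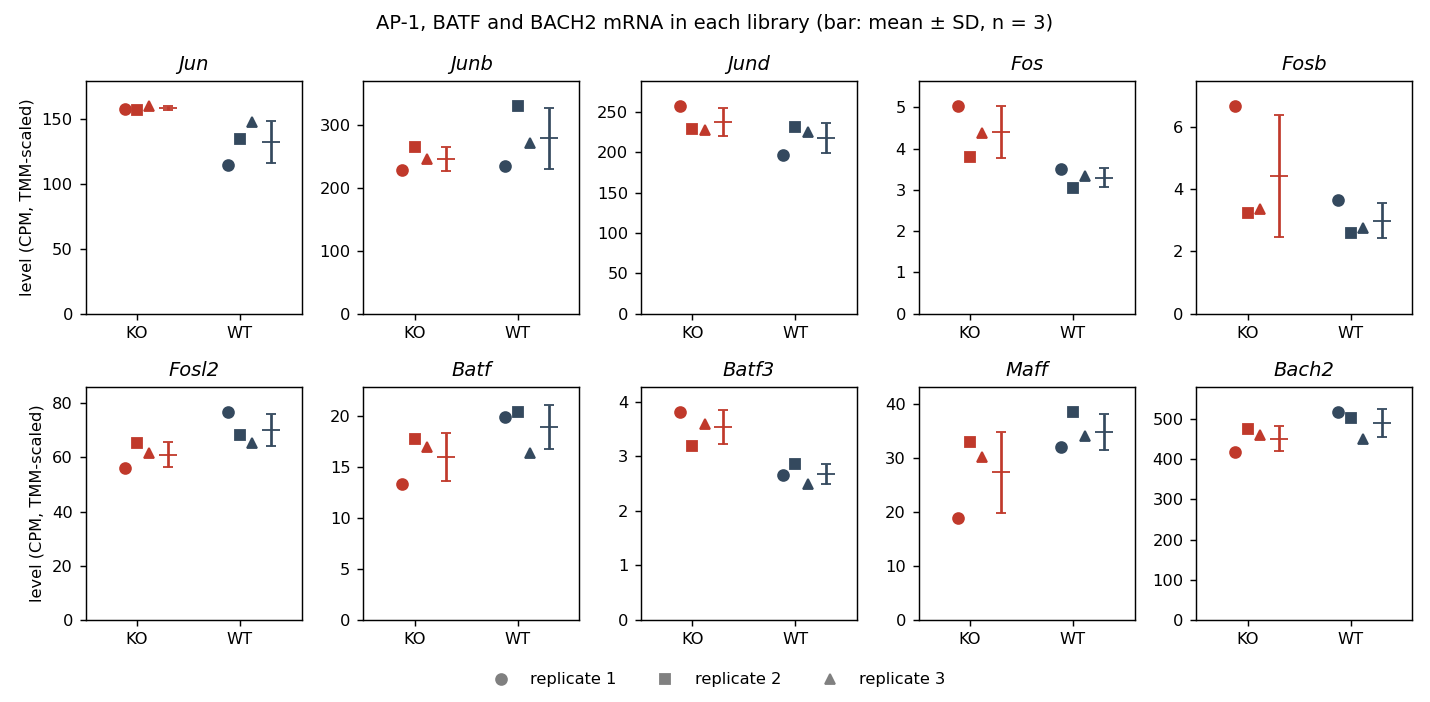
TMM-scaled CPM of each gene in each library (symbol by replicate number), KO left and WT right, with the mean ± SD beside the points (n = 3 each) and axes starting at 0. Jun, Fos and Batf3 have all KO points above all WT points; Fosb and Maff have 1 KO point, replicate 1, far from the other KO points.

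Among the JUN genes, Jun encodes c-Jun, the strongest activator of the family and the main partner of FOS. Jun stood at 157, 157 and 160 CPM in KO and at 115, 135 and 147 CPM in WT. The KO libraries lay close together, with a mean of 158 ± 1.58 CPM in KO, against 132 ± 16.4 CPM in WT (SD, n = 3 each), and all 3 were above the highest WT library. The log2 fold change was 0.26 (SE 0.09, 95% interval 0.06 to 0.46), and it was not called (edgeR adjusted p = 0.232, unadjusted p = 0.0187). Jun was the 1 member for which KO replicate 1 was neither the highest nor the lowest library: without KO replicate 1 the log2 fold change was 0.26. It was 0.16 without WT replicate 1, the lowest library for this gene (edgeR adjusted p = 0.25).

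Junb, which in mouse Tregs acts with BATF and IRF4 in the effector programme, stood at 228, 265 and 246 CPM in KO and at 235, 331 and 271 CPM in WT. The groups overlapped, with KO replicate 1 lowest and WT replicate 2 highest of the 6 libraries. The log2 fold change of Junb was -0.18 (SE 0.12, 95% interval -0.47 to 0.11, edgeR adjusted p = 0.532). It was -0.13 without KO replicate 1, -0.04 without WT replicate 2 and -0.29 without WT replicate 1. Junb overlaps Prdx2 on the other strand, and use of strand in counting was not given in the sources used here; Prdx2 was at 124, 127 and 122 CPM in KO and at 128, 136 and 129 CPM in WT. Jund, which restrains proliferation in several cell types, was at 257, 229 and 227 CPM in KO and at 197, 232 and 225 CPM in WT. The KO and WT libraries of Jund were interleaved except for KO replicate 1 at the top and WT replicate 1 at the bottom. Its log2 fold change of 0.13 (SE 0.08, edgeR adjusted p = 0.499) was 0.07 without KO replicate 1, 0.06 without WT replicate 1 and -0.0026 without replicate 1 of both groups.

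While the summed JUN mRNA overlapped between the groups, the shares of Jun and Junb in it did not. Jun made up 14.9, 14.8 and 15.6% of the 3 JUN genes' TPM in KO and 12.7, 11.6 and 14.0% in WT. Junb made up 38.3, 44.0 and 42.2% in KO and 45.7, 50.2 and 45.3% in WT. The Jund share overlapped, at 43.4 ± 2.97% in KO and 40.2 ± 1.77% in WT (SD, n = 3 each). The shares of 1 family add to a whole and so are not independent of each other. Of 7 such ratios and shares computed over the members alone, 4 did not overlap between groups, and with 3 libraries against 3 an exact two-sided permutation test of any of them cannot go below p = 0.1.

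Among the FOS genes, Fos, the prototype immediate early gene, stood at 5.03, 3.79 and 4.38 CPM in KO and at 3.50, 3.05 and 3.34 CPM in WT. Every KO library was above every WT library, and each Fos value rests on between 126 and 252 counts. The log2 fold change of Fos was 0.42 (SE 0.16, 95% interval 0.05 to 0.79), not called (edgeR adjusted p = 0.274, unadjusted p = 0.0295), and it was 0.31 without KO replicate 1. Fosb, a second early FOS gene, was at 6.67, 3.23 and 3.37 CPM in KO and at 3.64, 2.58 and 2.76 CPM in WT. KO replicate 1 was far above the other 5 libraries, and WT replicate 1 was above the other KO libraries. The Fosb log2 fold change was the largest of the 10 at 0.58 (SE 0.31, 95% interval -0.13 to 1.29, edgeR adjusted p = 0.424), but 0.15 without KO replicate 1 (edgeR adjusted p = 0.822).

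Fosl2 encodes FRA-2, which in mouse Th17 cells limits plasticity and is induced later and held longer than Fos. It was at 56.2, 65.4 and 61.5 CPM in KO and at 76.7, 68.2 and 65.3 CPM in WT. The highest KO and the lowest WT library nearly touched at 65.4 and 65.3 CPM, so the groups overlapped in CPM, while in TPM the KO libraries (14.98, 17.3 and 16.3 TPM) were all below the WT libraries (20.6, 17.9 and 17.5 TPM). The Fosl2 log2 fold change was -0.20 (SE 0.08, 95% interval -0.39 to -0.01), not called (edgeR adjusted p = 0.305, unadjusted p = 0.0395). Leaving out KO replicate 1 gave -0.14, leaving out WT replicate 1 gave -0.13, and leaving out replicate 1 of both groups gave -0.07. Of the summed TPM of Fos, Fosb and Fosl2, Fosl2 made up 65.3, 77.6 and 75.7% in KO and 79.8, 82.1 and 81.1% in WT, lower in each KO library than in each WT library. This separation was lost with Fosl1 in the sum, where the Fosl2 share was 49.96, 51.5 and 49.8% in KO and 51.4, 50.1 and 51.5% in WT. Fosl1, which encodes FRA-1, was itself at 7.47, 12.2 and 12.04 CPM in KO and at 15.1, 15.1 and 12.8 CPM in WT (log2 fold change -0.45, SE 0.19, edgeR adjusted p = 0.319), without overlap and lowest in KO replicate 1.

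**Figure D3:**
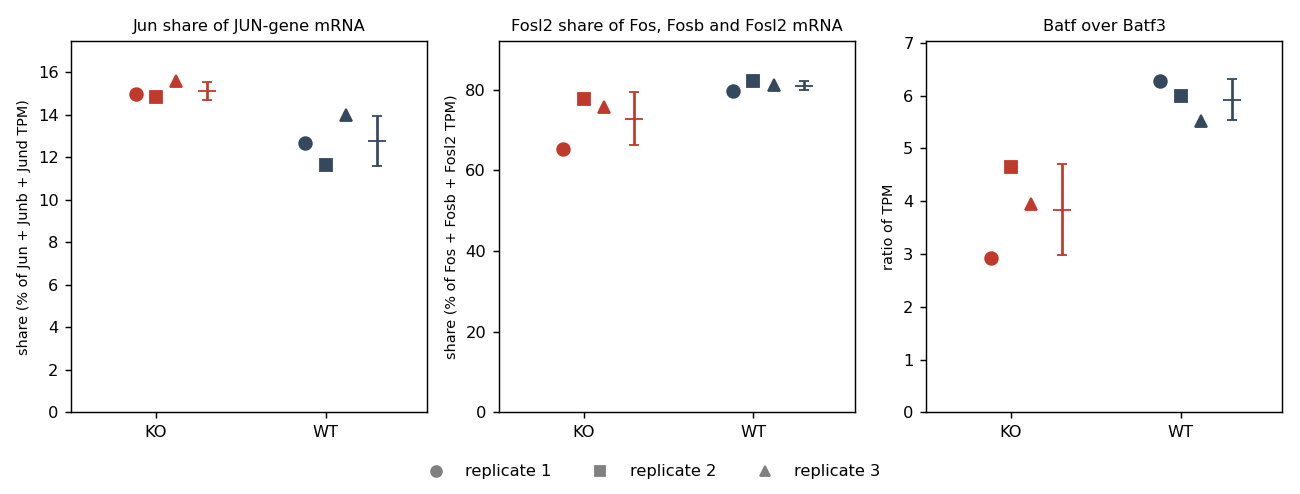
Share of Jun in JUN-gene TPM, share of Fosl2 in the summed TPM of Fos, Fosb and Fosl2, and the ratio of Batf to Batf3 TPM in each library (symbol by replicate number), KO left and WT right, with mean ± SD (n = 3 each). The Jun share is higher in all 3 KO libraries, and the Batf to Batf3 ratio is lower in all 3, as is the Fosl2 share, which overlaps between the groups once Fosl1 is added to the sum.

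The bases before the start sites of Jun, Fos and Fosb are shown because AP-1 and CREB family proteins feed back on these early genes through such sites. These 3 genes stood on the KO-higher side, as did Jund and Batf3. Each run is the 250 bases upstream of the RefSeq start (GRCm38.p6), 5′ to 3′ on the gene's strand, with matches to the motifs named below in capitals. Jun is read from chr4:95052223-95052472 on the minus strand, Fos from chr12:85473640-85473889 on the plus strand and Fosb from chr7:19310046-19310295 on the minus strand.
Jun: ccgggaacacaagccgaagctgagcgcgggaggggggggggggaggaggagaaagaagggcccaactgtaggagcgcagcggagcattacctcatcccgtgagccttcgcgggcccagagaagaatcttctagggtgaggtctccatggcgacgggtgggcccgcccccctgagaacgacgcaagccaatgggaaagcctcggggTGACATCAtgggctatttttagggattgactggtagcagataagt
Fos: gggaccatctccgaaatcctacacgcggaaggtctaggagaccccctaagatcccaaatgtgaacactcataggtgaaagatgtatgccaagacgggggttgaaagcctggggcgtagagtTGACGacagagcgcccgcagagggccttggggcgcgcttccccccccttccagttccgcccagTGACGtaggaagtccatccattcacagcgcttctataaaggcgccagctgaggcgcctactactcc
Fosb: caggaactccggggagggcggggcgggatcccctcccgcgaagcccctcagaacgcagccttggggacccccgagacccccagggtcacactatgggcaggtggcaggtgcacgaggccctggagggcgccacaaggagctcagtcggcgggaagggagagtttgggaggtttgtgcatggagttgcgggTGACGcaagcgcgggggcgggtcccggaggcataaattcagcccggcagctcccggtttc
The canonical AP-1 motif TGANTCA was in 0 of the 12 upstream windows of the 10 members, Maff having 3 windows, and in 6.75% of 32851 windows of the same length. The CRE-type motif TGACNTCA, searched on both strands, was in 3 member windows, 1 of Jun and 2 of Maff, and in 7.49% of all windows. In Jun it reads TGACATCA and begins 45 bases before the start. The short CRE core TGACG, which can overlap the CRE-type motif, was in 6 member windows, of Batf, Fos, Fosb, Junb and Maff, and in 17.8% of all windows. Of these genes Batf, Junb and Maff stood on the KO-lower side, and a link between the motifs and the fold changes was not tested. Fos has 2 copies, beginning 129 and 66 bases before the start, and Fosb has 1, beginning 60 bases before. These are letter matches in the reference, and binding was not measured. Windows follow RefSeq starts, which are not always the gene starts of the GENCODE M21 annotation. The Bach2 window begins at 32417185, inside the gene that starts at 32238804 there. The Jund window ends at 70697738, short of the gene start at 70698949.

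Batf and Batf3 stood on opposite sides. Batf was at 13.3, 17.7 and 16.9 CPM in KO and at 19.9, 20.4 and 16.4 CPM in WT, with KO replicate 1 lowest and WT replicate 3 below KO replicates 2 and 3. Its log2 fold change was -0.24 (SE 0.13, 95% interval -0.54 to 0.05, edgeR adjusted p = 0.421). It was -0.13 without KO replicate 1 and -0.09 without replicate 1 of both groups. Batf3, which is required for conventional type 1 dendritic cells and can stand in for BATF in mouse T cells, was at 3.81, 3.20 and 3.60 CPM in KO and at 2.66, 2.86 and 2.50 CPM in WT. All 3 KO libraries were above all 3 WT libraries, at 96 to 191 counts per library. The Batf3 log2 fold change was 0.41 (SE 0.16, 95% interval 0.05 to 0.77), not called (edgeR adjusted p = 0.283, unadjusted p = 0.0316), and 0.35 without KO replicate 1. The ratio of Batf to Batf3 TPM was 2.93, 4.65 and 3.94 in KO and 6.27, 5.98 and 5.51 in WT, so that Batf exceeded Batf3 in every library, by less in each KO library than in each WT library.

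Dendritic cell markers, which bear on Batf3, summed to 11.7, 8.37 and 8.41 CPM over 6 genes in KO and to 5.53, 6.14 and 4.48 CPM in WT. In KO most of this was Itgax, a gene also expressed by macrophages, at 8.20, 4.77 and 4.41 CPM in KO and at 1.88, 2.11 and 1.76 CPM in WT; it rose in KO (edgeR adjusted p = 0.0472). Of the markers of conventional type 1 dendritic cells, Clec9a was at 0.0200 CPM in KO replicate 1 and 0 in the other 5 libraries. The other, Xcr1, was at 0.875, 0.693 and 0.937 CPM in KO and at 0.731, 0.776 and 0.887 CPM in WT, with overlapping groups.

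Maff, a small MAF protein without an activation domain that partners BACH and NRF2 proteins, was at 18.8, 32.9 and 30.2 CPM in KO and at 31.9, 38.4 and 34.1 CPM in WT. KO replicate 1 was far below the other 5 libraries, and KO replicate 2 was above WT replicate 1. The Maff log2 fold change was -0.36 (SE 0.20, 95% interval -0.83 to 0.11, edgeR adjusted p = 0.45), and -0.14 without KO replicate 1 (edgeR adjusted p = 0.596). In TPM all KO libraries were below all WT libraries for Maff, the nearest at 29.5 TPM in KO and 29.7 TPM in WT. Bach2 was at 417, 477 and 461 CPM in KO and at 518, 504 and 451 CPM in WT, with overlapping groups. Its log2 fold change was -0.12 (SE 0.07, 95% interval -0.29 to 0.05, edgeR adjusted p = 0.488). It was -0.06 without KO replicate 1 and -0.03 without replicate 1 of both groups. Bach2 was the 1 member with counts that were not whole numbers, in all 6 libraries. RNA genes are annotated inside it, among them the antisense Bach2os, and none is among the 21899 listed genes. Jun and Jund overlap the antisense genes Junos and Gm11175, which are not listed either. Whether any of these share reads with the members was not tested. Bach2 mRNA exceeded Batf mRNA in TPM by 4.12, 3.49 and 3.60 times in KO and by 3.46, 3.22 and 3.55 times in WT, with overlapping groups.

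**Figure D4:**
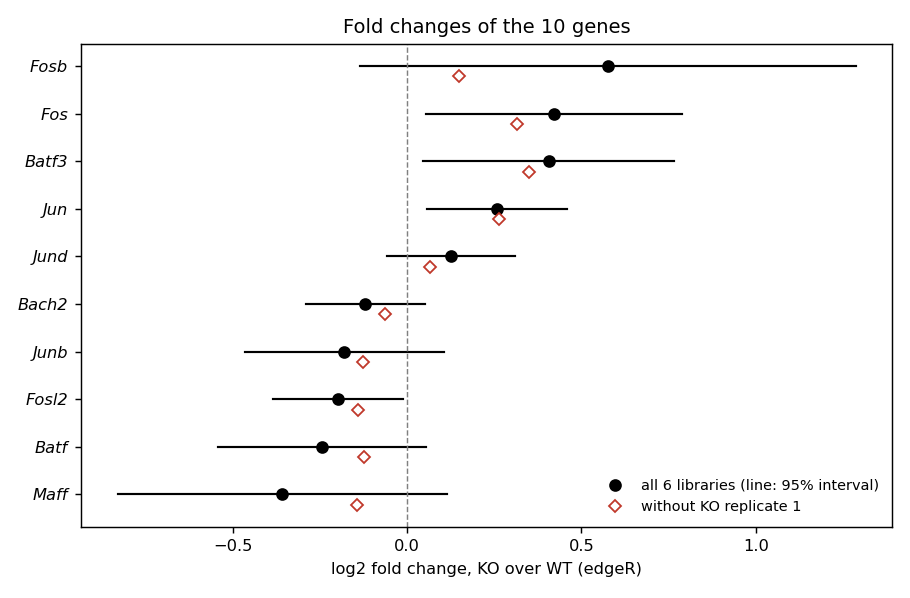
Log2 fold change, KO over WT, of each gene from edgeR (filled circles, lines for 95% intervals) and the same without KO replicate 1 (open diamonds). Jun, Fos and Batf3 have intervals above 0 and Fosl2 below 0 before adjustment; Without that library Fosb stands at 0.15 in place of 0.58 and Maff at -0.14 in place of -0.36.

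KO replicate 1 was the highest library of the 6 for 4 members (Jund, Fos, Fosb and Batf3) and the lowest for 5 (Batf, Junb, Fosl2, Maff and Bach2). It was thus at an end of the range for 9 of 10 members, and for 54.5% of all tested genes. No member changed side without it, but the log2 fold changes of Fosb, Maff, Batf, Jund and Bach2 shrank by over 1.5 times. Neutrophil markers summed to 309, 78.4 and 76.0 CPM over 10 genes in KO and to 33.7, 9.03 and 5.94 CPM in WT. Monocyte and macrophage markers summed to 383, 102 and 114 CPM over 11 genes in KO and to 33.3, 23.4 and 21.7 CPM in WT. All 9 tested neutrophil genes and all 8 tested monocyte and macrophage genes had every KO library above every WT library, beside 11.9% of all tested genes. No gene of either list was at 0 in all 6 libraries. The same separation held for both CD8 T cell genes and for 3 of 4 mast cell and basophil genes, but for 0 of 6 B cell genes. The neutrophil sum and the monocyte and macrophage sum were highest in KO replicate 1 and, among WT libraries, in WT replicate 1, the libraries with the most Fos and Fosb in each group. Their part in the values of Fos, Fosb, Batf3 and Maff was not tested; in bulk RNA more cells of a type and more RNA per cell cannot be told apart.

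Fos and Batf lie on the same chromosome as the targeted gene. In GENCODE M21 (GRCm38) Dlst is on the plus strand of chromosome 12, Fos (ENSMUSG00000021250) runs from 85473890 to 85477273, 363 kb downstream of the Dlst start, and Batf (ENSMUSG00000034266) from 85686669 to 85709087, 576 kb downstream. Within 1 Mb of the Dlst start 34 other genes were tested and 0 were called, beside 0.674% of all tested genes. At an unadjusted edgeR p under 0.05 there were 3, beside 15.1% of all tested genes. The median log2 fold change of the 34 was -0.04. Fos was the 1 of the 34 with every KO library above every WT library, beside 11.9% of all tested genes. In 4, beside 10.9% of all tested genes, every KO library was below: Acyp1 (-0.20, SE 0.10), Tmed10 (-0.13, SE 0.06), Erg28 (-0.20, SE 0.06) and Ift43 (-0.69, SE 0.20), as log2 fold changes with edgeR adjusted p of 0.419, 0.345, 0.194 and 0.181. Jdp2, another bZIP gene, which lies between Fos and Batf, had a log2 fold change of -0.10 (SE 0.18). No called gene started within 1 Mb of any of the other 8 members, where 0.674% of all tested genes were called.

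**Figure D5:**
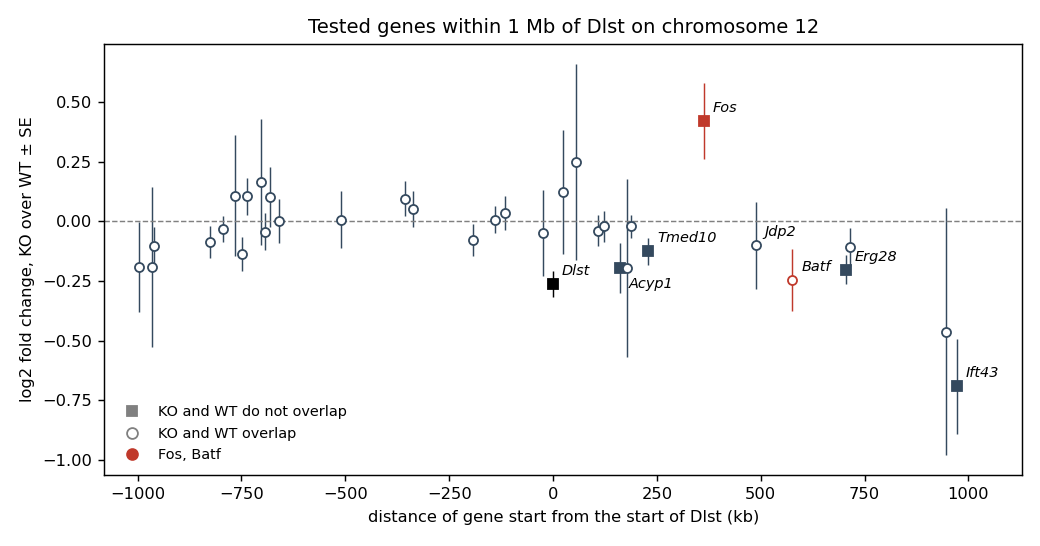
Log2 fold change ± SE, KO over WT, of each tested gene within 1 Mb of Dlst against its distance from the Dlst start in kb, with filled squares where the KO and WT libraries do not overlap. Fos stands at 0.42 above neighbours that lie mostly between -0.25 and 0.25, and Batf at -0.24.

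Of the other bZIP genes listed, 0 of 13 tested were called, beside 0.674% of all tested genes. In 4 of them every KO library was above every WT library and in 2 below, beside 11.9% and 10.9% of all tested genes. Their median log2 fold change was 0.02. Bach1, the paralog of Bach2 that represses heme oxygenase, came closest, at 35.2, 31.5 and 33.2 CPM in KO and at 25.7, 23.7 and 26.3 CPM in WT. Its log2 fold change was 0.40 (SE 0.07), with an edgeR adjusted p of 0.0526. Bach1 and Bach2 thus stood on opposite sides, and the difference between them was not tested.

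The proteins that bind DNA together with AP-1 and BATF had 0 of 8 called, with a median of 0.02. Over all tested genes 0.674% were called, a share that stands beside each count called in this paragraph. In 1 of the 8 every KO library was above every WT library and in 2 below, beside 11.9% and 10.9% of all tested genes. Irf4, the partner of BATF and JUNB, was at 840, 1074 and 1011 CPM in KO and at 1220, 1171 and 1089 CPM in WT, with no overlap (log2 fold change -0.25, SE 0.09, edgeR adjusted p = 0.268). Ets1 was at 947, 855 and 891 CPM in KO and at 761, 699 and 820 CPM in WT, also with no overlap (0.24, SE 0.07, edgeR adjusted p = 0.186). Upstream of AP-1, 0 of 14 genes of the MAP kinase and serum response list were called, with a median of -0.01, and Elk1 (-0.25, SE 0.11) and Map2k3 (-0.15, SE 0.08) had the smallest p. Dual-specificity phosphatases, which switch MAP kinases off, had 0 of 8 called and a median of 0.00. Dusp4 was at 286, 287 and 278 CPM in KO and at 306, 413 and 342 CPM in WT (-0.32, SE 0.10, edgeR adjusted p = 0.215), while Dusp2 stood at 0.17 (SE 0.07). The ubiquitin ligases of JUN and JUNB had 0 of 4 called, with Itch at 0.11 (SE 0.06) and Fbxw7 at -0.04 (SE 0.06).

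Genes downstream were read from lists drawn from general knowledge. Of 10 tested genes that BACH2 is known to repress in T cells 0 were called, beside 0.674% of all tested genes. In 2 every KO library was below every WT library, beside 10.9% of all tested genes, and in 0 above, beside 11.9%. The median log2 fold change was -0.09, and 2 of the 10 were above 0. Summed CPM over the 12 listed genes was 181 to 238 in KO and 242 to 271 in WT, without overlap and lowest in KO replicate 1. Prdm1, which encodes BLIMP-1, was at 2.64, 2.72 and 2.57 CPM in KO and at 3.61, 3.84 and 3.14 CPM in WT (log2 fold change -0.42, SE 0.15, edgeR adjusted p = 0.268). Il12rb1, a subunit of the IL-12 and IL-23 receptors, stood at -0.32 (SE 0.13, edgeR adjusted p = 0.297). Of 13 tested genes that BATF is known to support 1 was called, beside 0.674% of all tested genes. This was Il17a, which was higher at 4.49, 8.06 and 7.36 CPM in KO and at 1.39, 2.05 and 2.04 CPM in WT (1.85, SE 0.26, edgeR adjusted p = 0.0301). The median of that list was -0.17, and 2 of the 13, Il17a and Pparg, had a log2 fold change above 0. In 3 of the 13 every KO library was below every WT library and in 1 above, beside 10.9% and 11.9% of all tested genes. Il1rl1, Klrg1 and Nfil3 stand in both lists. Textbook AP-1 targets had 0 of 14 called, beside 0.674% of all tested genes, and a median of -0.06. Plaur, the urokinase receptor, which myeloid cells also express, stood at 1.15 (SE 0.40) and Fasl at -0.36 (SE 0.16).

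Immediate early genes that are induced together with Fos and Jun had 0 of 13 called, beside 0.674% of all tested genes, and a median of -0.02. Every KO library was above every WT library in 5 of 13 and below in 0, beside 11.9% and 10.9% of all tested genes. These 5 were Egr1, Egr3, Nr4a1, Nr4a3 and Myc. Egr3 was at 85.4, 78.6 and 75.2 CPM in KO and at 60.6, 49.8 and 63.1 CPM in WT (log2 fold change 0.46, SE 0.09, edgeR adjusted p = 0.0894). Nr4a1 was at 252, 206 and 196 CPM in KO and at 191, 140 and 167 CPM in WT (0.39, SE 0.13, edgeR adjusted p = 0.247). Ier2, Ier5, Klf6 and Btg2, picked after their values were seen, were among the other 8. Their log2 fold changes lay between -0.06 and 0.01, which does not describe the rest. The rest of those 8 are not given singly. Of the 13, 6 had a log2 fold change above 0. The summed CPM of the list was 1967 to 2031 in KO and 1841 to 1893 in WT, without overlap.

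Genes with the most similar profile were found for the 3 members that varied most, as the root mean square difference between log2 CPM profiles over 6 libraries, each centred on its mean, among 9826 protein-coding genes. For Fosb they were Amigo2 (0.084), Sap25 (0.099) and Lrp1 (0.111), all highest in KO replicate 1, with Lrp1 at 21.2, 10.9 and 11.6 CPM in KO and at 13.2, 9.95 and 8.46 CPM in WT. For Maff they were Ccr4 (0.034), Ctla2b (0.053) and Stard10 (0.063). Ccr4, a chemokine receptor of effector Tregs, was at 77.4, 132 and 128 CPM in KO and at 131, 154 and 136 CPM in WT, lowest in KO replicate 1 as Maff was. For Fos they were Samhd1 (0.047), Ms4a4b (0.051) and Cirbp (0.059), of which Samhd1, a dNTP hydrolase, was at 448, 338 and 377 CPM in KO and at 319, 271 and 320 CPM in WT. These profiles share the libraries and their depth, and likeness over 6 points is a description.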

How the data were processed

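Bulk RNA sequencing libraries from 3 KO and 3 WT samples were used. Per the submitters' processing notes FastQC and HISAT2 were used, without versions; genome build, annotation and counting program were not given in the sources used here. The authors deposited, per the file headers, estimated counts per gene, not all whole, and TPM, scaled by gene length and library. Counts were rounded. Genes were kept by filterByExpr (12768 of 21899), scaled by TMM (factors 0.988 to 1.01) and tested, two-sided, by quasi-likelihood with edgeR 4.0.16 (robust, genotype as the single term), with Benjamini-Hochberg adjustment over all tested genes and a threshold of 0.05. SEs are log2 fold change over the root of F. Log2 fold changes are KO minus WT. Alternatives used DESeq2 1.42.0, limma 3.58.1 on log2(TPM + 1) and log2(TPM + 0.1), other scalings and filters, and left-out libraries. Software was R 4.3.3 and Python 3.11.15 with matplotlib 3.10.9 and pandas 2.3.3. The test was tried on simulated data.

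The members, lists and rules were chosen with earlier results of these data known. Named were the 10 members, Dlst, list members past the threshold (up to 4) or else the 2 of smallest p, genes near Dlst without overlap, and the 3 genes of nearest profile for the 3 most variable members (mean log2 CPM of at least 2). One gene that this rule names is not reported here. Prdx2, Jdp2, Fosl1, Itgax, Pparg, Xcr1, Clec9a, Ddx3y, Egr1, Nr4a3, Myc, Ier2, Ier5, Klf6 and Btg2 were chosen after their values were seen. Positions were matched by Ensembl identifier to GENCODE M21, found for 21806 and not for 93 identifiers, and upstream sequences by symbol to RefSeq for all 10 members.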

Additional observations from a re-analysis of the deposited data

How the results depend on the processing

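No member was called under any of the 17 alternative settings, and 169 of 170 fold changes of members kept their direction and did not pass the threshold. The exception was Jund, at -0.0026 without the first replicate of both groups together. Adjusted p over these settings reached as low as 0.106 for Jun, 0.182 for Batf3, 0.208 for Maff and 0.236 for Fos. The count of called genes over the whole table was less stable than the members: 86 were called in the fit reported above, 133 with no low-count filter, 532 by DESeq2, 39 by limma on log2(TPM + 1), 5 by limma with no filter, 538 without the first replicate of both groups, 8 with KO replicates 2 and 3 summed, and between 4 and 93 when single libraries were left out (4 without KO replicate 3, 10 without KO replicate 2, 16 without WT replicate 3 and 27 without WT replicate 2). The cause was not tested. The lower Fosl2 share in KO was lost when Fosl1 was added to the FOS sum, an alternative chosen after seeing the data. With a replicate block 177 were called and 0 members. Same-numbered libraries shared deviations at r = 0.184, 0.078 and 0.0841. KO replicate 1 stood at r = -0.143 and -0.106 with WT replicates 2 and 3, and WT replicate 1 at -0.1 and -0.145 with KO replicates 2 and 3. For KO replicate 2 with WT replicate 3 and the reverse, r was 0.0576 and 0.112. The labels state no pairing, so the numbers were not taken as pairs, and an effect shared by the first replicates was not tested. Fos, Fosb and Batf3 rest on 96 to 334 counts per library, which limits their precision.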
